A study of Mus musculus with 42 samples.

Results

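The 10 genes described here encode subunits of the BAF (mammalian SWI/SNF) chromatin remodeling complex, and were taken by name from the 18194 genes that the arrays measure with a probe set of their own. They are 3 subunits of the progenitor form (Actl6a, Phf10 and Ss18), 4 of the neuronal form (Actl6b, Dpf1, Dpf3 and Ss18l1), and 3 core subunits, the ATPases Smarca4 and Smarca2 and the scaffold Smarcc1. All 10 were found, with 23 probe sets in all. The level of a gene is the log2 signal of its main probe set, the one with the highest mean over the 42 arrays. Every other probe set of a member is described for culture against tissue, and genotypes are compared by the main probe sets. Whether arrays of 2 groups overlap is given as a description, and the share of all genes without overlap was not counted. The samples were C57BL/6 mouse embryos at 17 to 18 days post conception, either wild type (WT) or Fmr1 knockout (KO), untreated. Each array held material pooled from littermates under 1 mouse ID, taken here as 1 litter, as primary hippocampus (6 KO and 6 WT arrays), primary cortex (5 and 5), or neuronal cultures from the hippocampus (5 and 5) or the cortex (5 and 5) kept for 14 days in vitro. Of the litters, 10 (5 of each genotype) were sampled in all 4 systems and 2 in primary hippocampus only, and KO and WT shared no litter. Fmr1 knockout mice lack FMRP, the RNA-binding protein missing in fragile X syndrome.

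BAF complexes use the energy of ATP to move nucleosomes, and their subunits come from gene families whose members replace one another as cells mature. In neural progenitors the complex holds the actin-related protein Actl6a (BAF53a), the PHD finger protein Phf10 (BAF45a) and Ss18. As cells leave the cycle and become neurons, these give way to Actl6b (BAF53b), Dpf1 or Dpf3 (BAF45b and BAF45c) and Ss18l1 (CREST), and the neuronal form is known for its part in dendrite outgrowth and activity-dependent transcription. The comparisons below ask whether progenitor and neuronal subunits separated between embryonic tissue and matured cultures, between regions, and between genotypes.

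Actl6a and Actl6b are a pair of paralogs in which one is replaced by the other, and the 250 bases before their annotated starts are shown here because they differ in common promoter elements. Both are from RefSeq (GRCm38.p6, plus strand), at chr3:32708296-32708545 for Actl6a and chr5:137553296-137553545 for Actl6b, and capitals mark each GC box (GGGCGG) and each CCAAT box on either strand.
Actl6a: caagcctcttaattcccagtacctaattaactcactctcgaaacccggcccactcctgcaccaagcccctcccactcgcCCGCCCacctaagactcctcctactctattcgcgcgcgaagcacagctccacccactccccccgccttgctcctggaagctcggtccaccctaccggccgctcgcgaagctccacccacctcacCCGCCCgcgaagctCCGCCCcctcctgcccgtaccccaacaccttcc
Actl6b: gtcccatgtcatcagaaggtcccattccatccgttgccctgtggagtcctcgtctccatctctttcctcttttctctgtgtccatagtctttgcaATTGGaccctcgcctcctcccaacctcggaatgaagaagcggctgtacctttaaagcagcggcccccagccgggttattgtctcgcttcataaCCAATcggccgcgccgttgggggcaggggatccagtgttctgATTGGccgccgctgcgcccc
The Actl6a window held 3 GC boxes and no CCAAT box, and the Actl6b window held no GC box and 3 CCAAT boxes. Of the 9 members with a promoter in the table, Actl6b alone lacked a GC box in this window, and 8 held one, against 32.7% of all 32851 promoters of that length. CCAAT was in 3 members (Actl6b, Dpf1 and Dpf3), against 33.8% of all promoters. Neither TATAAA (12.4% of all) nor TTCAGCACC, part of the site of the repressor REST (0.301% of all), was found in any of the 9 windows. The searches covered both strands, and none of the motifs contains another. A match is a description of the letters in this window only.

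The 4 systems differed in cell makeup as well as in age. In hippocampal culture 10 of 10 mature neuron and synapse genes were higher than in primary hippocampus, and in cortical culture 9 of 10 were higher than in primary cortex and 1 was lower. Immature neuron genes mostly went the other way. Of 10, 8 were lower and 2 higher in hippocampal culture, and 7 were lower and 1 higher in cortical culture. Cell cycle genes were lower in culture (9 of 9 measured genes in the hippocampus, 8 of 9 in the cortex). Of 10 genes of radial glia and intermediate progenitors, 10 were lower in hippocampal culture. In cortical culture 6 of these were lower and 3 higher. The log2 of their summed signal was 13.64 to 14.41 over the cortical culture arrays and 13.61 to 14.12 over the primary cortex arrays. The mean log2 signal of Eomes, a marker of intermediate progenitors, was 9.84 to 10.81 over the tissue groups and 4.73 to 4.95 in the culture groups, below the background level of 5.16. That level is the 95th percentile of 123 probe sets for olfactory, vomeronasal and keratin-associated genes. Cldn5, a marker of endothelium, was likewise below it in the cultures, while the astrocyte marker Gfap was above it in both, at 9.07 and 9.13 in the hippocampal and 6.07 and 6.41 in the cortical culture groups. In such bulk samples, fewer cells of a type and less RNA per cell cannot be told apart. Fmr1 itself was lower in every KO array than in every WT array of its system, by 0.90 to 0.99 on the log2 scale. Ttr, a choroid plexus gene, stood at 10.43 and 12.02 in the WT primary cortex arrays of litters 2644 and NT, against at most 7.07 in the other primary cortex arrays, and it was also high in hippocampal culture (8.54 to 11.05) but not in cortical culture (3.80 to 4.75).

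By their main probe sets, all 3 progenitor subunits fell between tissue and culture in both regions. Of the 4 neuronal subunits, 2 fell and 1 (Dpf3) rose in the hippocampus, and 3 fell and none rose in the cortex. A second probe set of Phf10 rose in both regions, as described below. In the hippocampus 7 of the 10 members were lower in culture and 1 was higher at an adjusted p under 0.05 (limma, Benjamini-Hochberg), where 36.2% of all genes were lower and 35.9% higher. In the cortex 9 members were lower and none was higher, where 35.9% of all genes were lower and 35.3% higher. The median member changed by -0.90 in the hippocampus and -0.74 in the cortex, while the median of all genes was 0.02 and 0.01. Both genotypes entered these contrasts with equal weight, and the culture and tissue samples differed in age, in cell makeup and in dissociation, which cannot be told apart here. The log2 of the summed signal of the mature neuron genes was 13.12 to 13.86 over the tissue arrays and 14.40 to 15.29 over the culture arrays. That of the immature neuron genes was 15.55 to 15.76 and 14.35 to 15.10, and that of the cell cycle genes 12.72 to 13.62 and 10.80 to 12.47. The part of these 3 lists in the changes of the members was not tested.

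**Figure D1:**
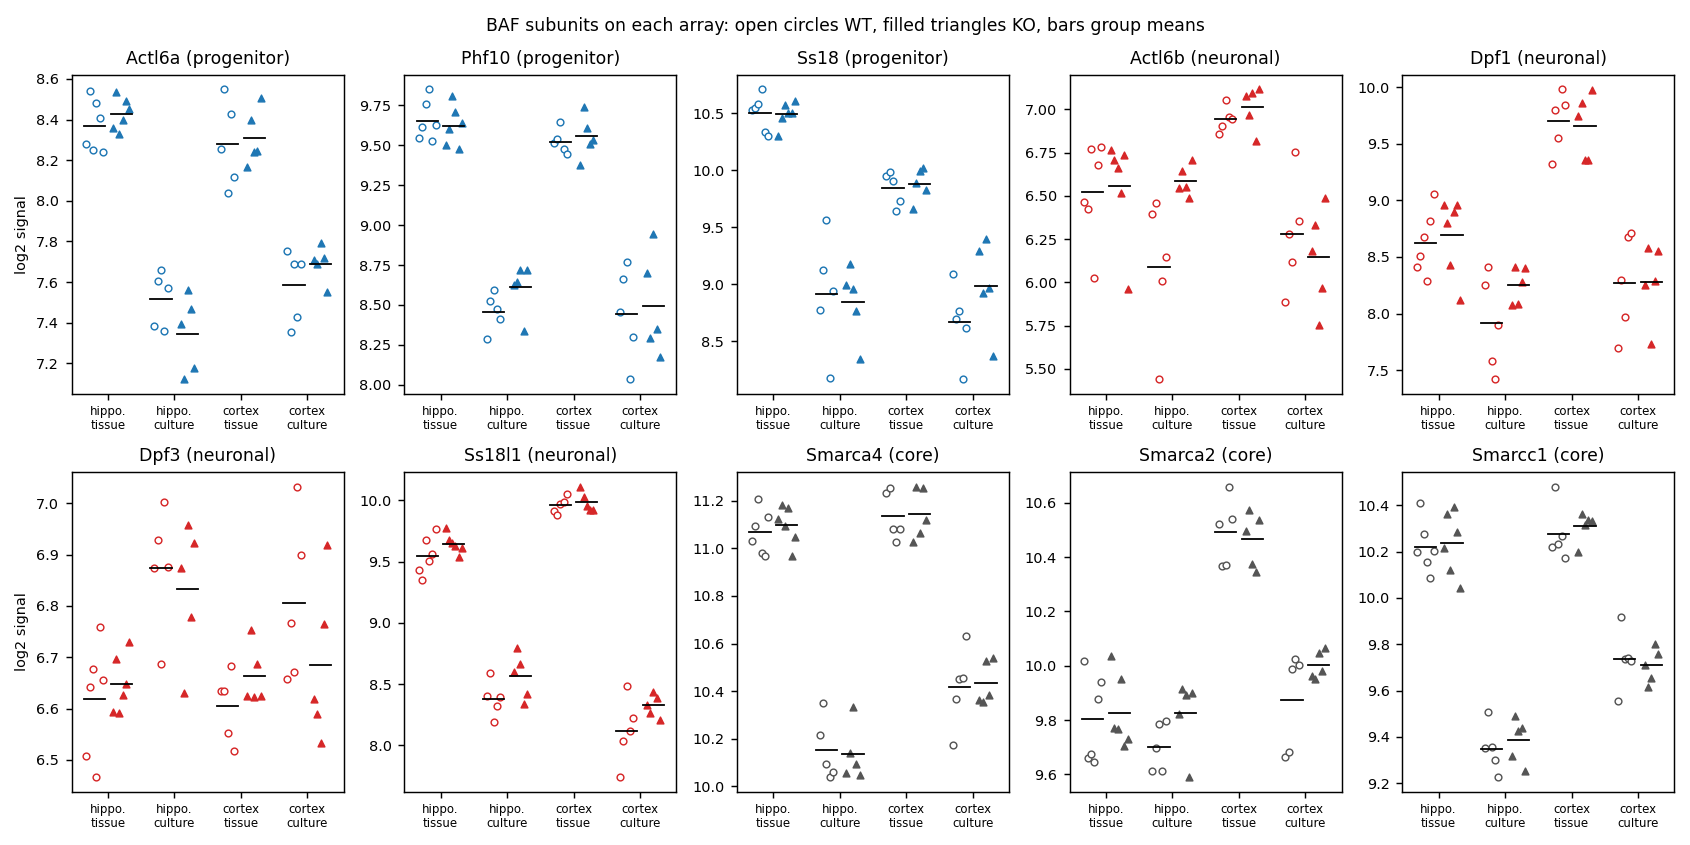
Log2 signal of the main probe set of each of the 10 BAF subunits on each of the 42 arrays, by system (x axis), with open circles for WT, filled triangles for KO and bars for group means. Blue marks progenitor, red neuronal and grey core subunits, and each panel has its own y axis. The culture arrays of Actl6a, Phf10, Ss18, Smarca4, Smarcc1 and Ss18l1 all lie below the tissue arrays of their region, and those of Dpf3 do not.

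Actl6a, the progenitor actin-related subunit, ranged from 8.24 to 8.54 (median 8.40) in primary hippocampus and from 7.12 to 7.66 (median 7.43) in hippocampal culture. In primary cortex its lowest, median and highest values were 8.04, 8.25 and 8.55, and in cortical culture 7.35, 7.69 and 7.79. No culture array reached the lowest tissue array. Actl6a fell by 0.97 ± 0.06 (SE) in the hippocampus (adjusted p = 1.12e-16, limma) and by 0.66 ± 0.07 in the cortex (adjusted p = 2.49e-11). Its other 2 probe sets fell further, by 2.49 and 2.33 in the hippocampus and by 1.74 and 1.76 in the cortex. Ss18, which binds the ATPase module of progenitor complexes, ranged from 10.30 to 10.71 in primary hippocampus and from 8.18 to 9.56 in hippocampal culture. In the cortex its range went from 9.64 to 10.02 in tissue to 8.17 to 9.40 in culture, again with no overlap. The decreases were 1.61 ± 0.12 (adjusted p = 4.96e-15, limma) and 1.03 ± 0.13 (adjusted p = 2.48e-09). Of its other probe sets, 1419361_at fell by 1.39 and 1.496, and the dim 1436257_at fell by 0.54 in the hippocampus and differed by -0.28 in the cortex (adjusted p = 0.145).

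Phf10, the progenitor PHD finger subunit, gave opposite answers with its 2 probe sets. The brighter, 1449085_at, ranged from 9.48 to 9.85 in primary hippocampus and from 8.29 to 8.72 in hippocampal culture, and fell by 1.11 ± 0.08 (adjusted p = 9.7e-16, limma) there and by 1.07 ± 0.08 in the cortex (adjusted p = 1e-14). The other, 1435774_at, had a mean of 7.37 in primary hippocampus and 8.38 in hippocampal culture, and was higher in culture by 1.01 ± 0.06 in the hippocampus (adjusted p = 1.22e-18) and 0.77 ± 0.06 in the cortex (adjusted p = 1.66e-14). For neither probe set did culture and tissue arrays overlap in either region. The direction for Phf10 thus depends on the probe set, and with both averaged, a choice made after seeing the data, the hippocampal difference was -0.05 (adjusted p = 0.407, limma).

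Among the neuronal subunits, Ss18l1 had the largest decrease of the 10 main probe sets in the cortex. This calcium-responsive partner of the complex ranged from 9.88 to 10.11 (median 9.96) in primary cortex and from 7.74 to 8.49 (median 8.25) in cortical culture. In the hippocampus it went from 9.35 to 9.77 in tissue to 8.19 to 8.79 in culture. Neither region had overlapping arrays, and Ss18l1 fell by 1.75 ± 0.07 in the cortex (adjusted p = 7.89e-24, limma) and by 1.13 ± 0.06 in the hippocampus (adjusted p = 9.79e-19). Its dim second probe set, with system means of 5.66 to 5.79, differed by -0.10 in the cortex and 0.11 in the hippocampus, neither past the threshold.

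Dpf1, a neuronal PHD finger subunit, ranged from 9.33 to 9.98 in primary cortex and from 7.69 to 8.71 in cortical culture, without overlap, a decrease of 1.41 ± 0.14 (adjusted p = 2.44e-11, limma). In the hippocampus it ranged from 8.12 to 9.05 in tissue and from 7.42 to 8.41 in culture, so that the arrays overlapped, and fell by 0.58 ± 0.14 (adjusted p = 0.000274). The second probe set of Dpf1 fell by 1.39 in the cortex and 0.37 in the hippocampus. Dpf3, the related subunit that binds modified histones, was the one member with a higher level in culture by its main probe set. It ranged from 6.47 to 6.76 in primary hippocampus and from 6.63 to 7.003 in hippocampal culture, with overlap, a difference of 0.22 ± 0.05 (adjusted p = 0.000167). In the cortex the difference of Dpf3 was 0.11 ± 0.05 (adjusted p = 0.0545, and 0.0441 with the litter as a block, limma). The mean of its second probe set over each of the 4 systems, 4.27 to 5.15, was below background.

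Actl6b, the neuronal actin-related subunit, ranged from 6.82 to 7.12 (median 6.96) in primary cortex and from 5.75 to 6.75 (median 6.23) in cortical culture, without overlap. It fell there by 0.77 ± 0.12 (adjusted p = 2.42e-07, limma). In primary hippocampus its lowest, median and highest values were 5.96, 6.67 and 6.78, and in hippocampal culture 5.44, 6.47 and 6.70, so the ranges overlapped and the difference of -0.20 ± 0.11 did not pass the threshold (adjusted p = 0.102). The lowest primary hippocampus arrays, at 5.96 and 6.02, were those of litters KO 4237 and WT 3104, the 2 litters sampled in primary hippocampus only. Without both, a choice made after seeing the data, the difference of Actl6b was -0.31 (adjusted p = 0.00616, limma). It also passed without KO 4237 (-0.26), WT 3104 (-0.25) or the hippocampal culture of WT 2643 (-0.25) alone. Without the hippocampal culture of WT 2644, the lowest array at 5.44, it was -0.12 (adjusted p = 0.299, limma). With all arrays the 95% interval of the hippocampal difference was -0.43 to 0.02 on the log2 scale. Actl6b has 1 probe set on the array, so no other reading of it was at hand.

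**Figure D2:**
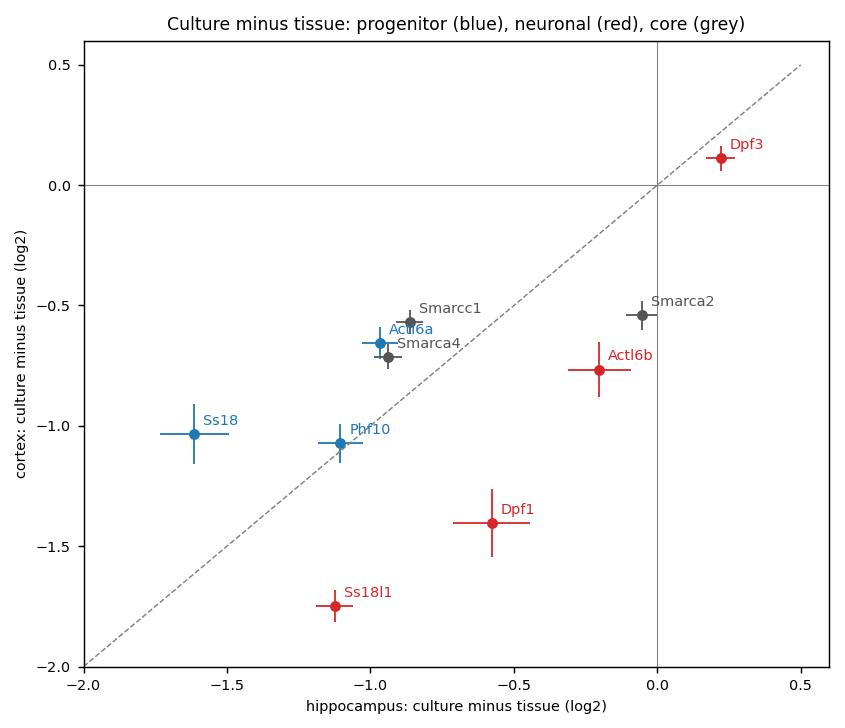
Culture minus tissue on the log2 scale for the main probe set of each member, hippocampus on the x axis and cortex on the y axis, with bars for standard errors and a dashed line where both are equal. Actl6b, Dpf1, Ss18l1 and Smarca2 lie below the line (a larger fall in the cortex), and Ss18, Actl6a, Smarca4 and Smarcc1 above it.

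Of the core subunits, the ATPase Smarca4 (BRG1) and the scaffold Smarcc1 (BAF155) fell in both regions. Smarca4 ranged from 10.97 to 11.21 in primary hippocampus and from 10.04 to 10.35 in hippocampal culture, and fell by 0.94 ± 0.05 (adjusted p = 1.58e-19, limma) there and by 0.71 ± 0.05 in the cortex (adjusted p = 3.01e-15). Smarcc1 fell by 0.86 ± 0.05 (adjusted p = 7.83e-19) and 0.57 ± 0.05 (adjusted p = 7.13e-13). Culture and tissue arrays of both genes did not overlap in either region. The second Smarca4 probe set fell by 0.58 in the hippocampus and 0.27 in the cortex. For Smarcc1, 1423417_at fell by 0.73 in both and 1455246_at by 0.96 and 0.52, and 1459824_at was below background. The alternative ATPase Smarca2 (BRM) ranged from 9.64 to 10.04 in primary hippocampus and from 9.59 to 9.92 in hippocampal culture, a difference of -0.05 ± 0.06 (adjusted p = 0.425), and fell by 0.54 ± 0.06 in the cortex (adjusted p = 1.79e-10). A second Smarca2 probe set, 1452333_at, was higher in hippocampal culture by 1.04 ± 0.16 (adjusted p = 2.27e-07) and differed by 0.05 ± 0.16 in the cortex, so its direction for the hippocampus depends on the probe set.

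**Figure D3:**
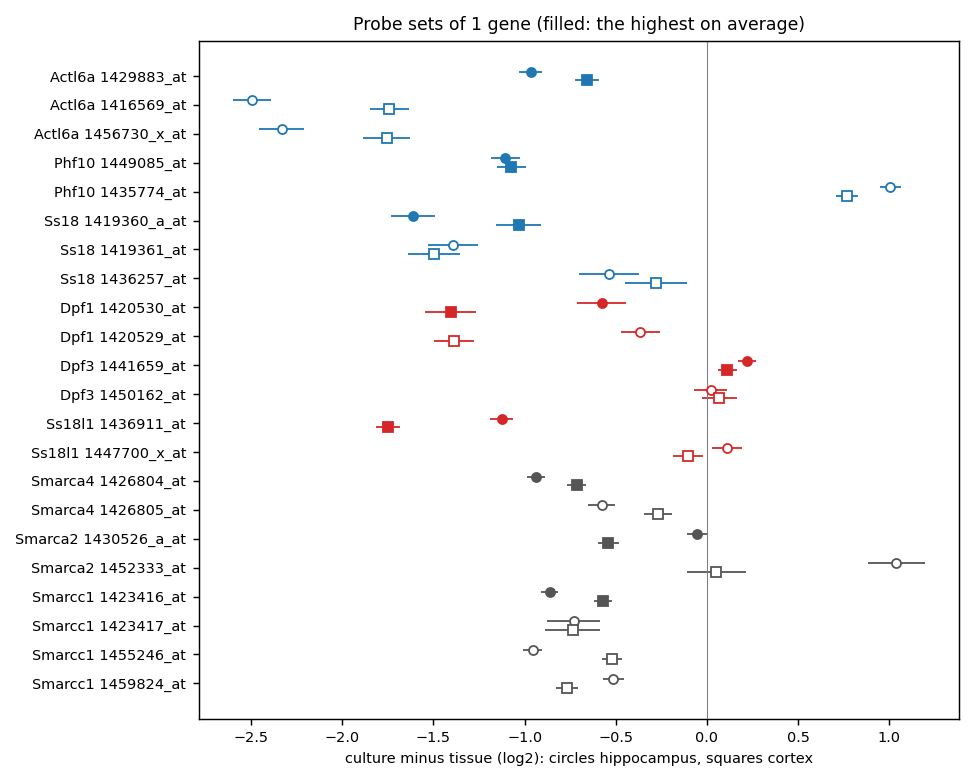
Culture minus tissue on the log2 scale for every probe set of the 9 members that have more than 1, with circles for the hippocampus, squares for the cortex and bars for standard errors. Filled symbols are the main probe set. The probe sets of Phf10 lie on opposite sides of 0, and 1452333_at of Smarca2 lies at 1.04 in the hippocampus.

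Most other SWI/SNF subunits were lower in culture too. Of 20 other subunits, 18 were lower in hippocampal culture than in primary hippocampus and none was higher, and all 20 were lower in cortical culture than in primary cortex, with medians of -0.82 and -0.72. Among the larger decreases were those of Smarce1, a DNA-binding core subunit (-1.84 and -2.38), Bcl11a (-1.90 and -2.25) and Bcl11b (-1.63 and -1.84), zinc finger transcription factors of developing neurons, and Bcl7c (-1.90 and -1.08). Arid1b, which defines the canonical complexes, was lower by far less (-0.15 and -0.17), and Brd9 (-0.10) and Bicral (0.17) did not pass in the hippocampus. Among 16 ISWI and CHD remodelers, 13 were lower and 2 higher in each region, and Chd5, a remodeler of neurons, was higher by 2.29 ± 0.12 and 1.62 ± 0.13. Baz1a, a partner of the ISWI ATPases, fell furthest (-3.42 and -2.46). Of REST and its cofactors, 10 of 12 were lower in hippocampal and 7 of 12 in cortical culture, with Rcor2 (-2.29 and -2.37) and Hdac2 (-1.70 and -1.53) lower in both. REST itself differed by -0.74 in the hippocampus (adjusted p = 5.73e-07, limma) and by -0.03 in the cortex (adjusted p = 0.841).

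**Figure D4:**
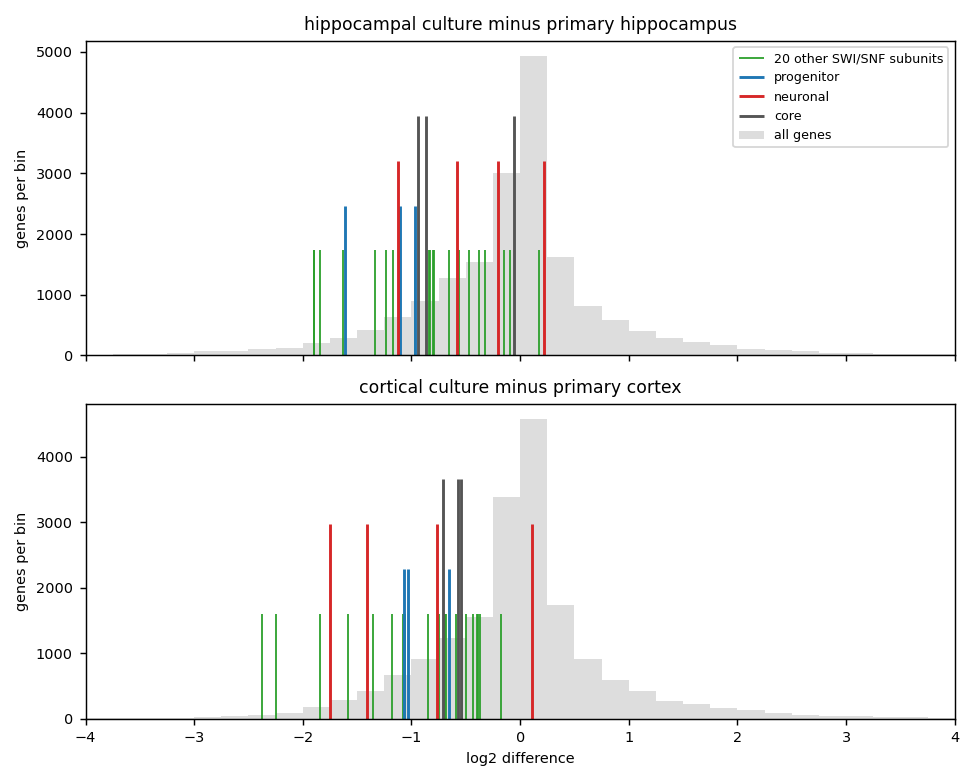
Number of genes (y axis) by culture minus tissue log2 difference (x axis, bins of 0.25) in grey for all genes within -4 and 4, hippocampus above and cortex below, with vertical lines for progenitor (blue), neuronal (red) and core (dark grey) members and for the 20 other SWI/SNF subunits (green). Line heights only set the groups apart. Nearly all lines lie to the left of 0, with Dpf3 the one member to the right in both panels.

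The change in the hippocampus minus that in the cortex passed the threshold for 8 of 10 members, where 32.0% of all genes did. Of the neuronal subunits, Dpf1 (0.83 ± 0.20), Ss18l1 (0.62 ± 0.09) and Actl6b (0.56 ± 0.16) fell less in the hippocampus than in the cortex, and Dpf3 did not pass (0.11 ± 0.07). Of the progenitor subunits, Ss18 (-0.58 ± 0.17) and Actl6a (-0.31 ± 0.09) fell more in the hippocampus, and Phf10 did not pass (-0.03 ± 0.11). The core subunits were divided, with Smarca2 at 0.49 ± 0.08, Smarcc1 at -0.29 ± 0.07 and Smarca4 at -0.23 ± 0.07. Second probe sets did not all follow, since 1419361_at of Ss18 differed by 0.11 (adjusted p = 0.755, limma) and 1435774_at of Phf10 by 0.24 (adjusted p = 0.0273). Those of Dpf1 (1.02), Smarca2 (0.99) and Actl6a (-0.75 and -0.58) had the sign of the main probe set and passed. The adjusted p values of the 8 main probe sets ran from 1.4e-06 for Ss18l1 to 0.0153 for Smarca4 (limma). The shift of cell cycle genes was larger in the hippocampus as well (9 of 9 genes, median -1.51), as was that of mature neuron genes (7 of 10, median 0.64), and their part in the result was not tested.

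Within single arrays, the difference between the main probe sets of a neuronal and a progenitor partner was compared as a description, with no test. The difference Actl6b minus Actl6a had a mean of -1.86 ± 0.34 (SD, n = 12) in primary hippocampus and -1.09 ± 0.51 (n = 10) in hippocampal culture, but -1.32 ± 0.21 in primary cortex and -1.43 ± 0.41 in cortical culture (n = 10 each). For Ss18l1 minus Ss18 the means went from -0.90 ± 0.22 to -0.41 ± 0.41 in the hippocampus and from 0.11 ± 0.20 to -0.60 ± 0.40 in the cortex. For Dpf1 minus Phf10 they went from -0.98 ± 0.38 to -0.45 ± 0.37 and from 0.14 ± 0.29 to -0.19 ± 0.62. The mean shift was upward in the hippocampus and downward in the cortex for all 3 pairs. In the cortex, the shift of Actl6b minus Actl6a (-0.11) was smaller than the SD of tissue and of culture. That of Dpf1 minus Phf10 (-0.33) was smaller than the SD of culture (0.62). The direction depends on the probe set, since the other Actl6a probe sets fell more than Actl6b in the cortex and the second Phf10 probe set rose in the hippocampus. The levels of 2 probe sets are not on a common scale.

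In embryonic tissue, 3 of 4 neuronal subunits were lower in the hippocampus than in the cortex by their main probe sets. Of the 10 members, 4 were lower and 1 higher in primary hippocampus, where 16.7% of all genes were lower and 19.6% higher. Dpf1 was lower by 1.02 ± 0.14 (adjusted p = 1.04e-07, limma) and its second probe set by 1.17. Smarca2 was lower by 0.66 ± 0.06 (adjusted p = 2.56e-12) and its second probe set by 1.48. Actl6b was lower by 0.44 ± 0.11 (adjusted p = 0.0018) and Ss18l1 by 0.37 ± 0.06 (adjusted p = 8.92e-06). Ss18 was higher by 0.64 ± 0.12 (adjusted p = 5.31e-05). By main probe sets, the arrays of the 2 regions did not overlap for any of these 5 genes, Smarca2 having ranged from 10.35 to 10.66 in primary cortex. The share of all genes without such overlap was not counted. The arrays did overlap for other probe sets of Ss18 and Ss18l1. Probe set 1419361_at of Ss18 ranged from 7.36 to 8.06 in primary hippocampus and from 7.18 to 7.81 in primary cortex. The dim second probe set of Ss18l1 ranged from 5.32 to 6.06 and from 5.66 to 5.87. The tissues also differed in mature neuron genes (7 of 10 lower in the hippocampus, none higher), in radial glia and intermediate progenitor genes (8 of 10 higher) and in choroid plexus genes (6 of 7 higher), whose part was not tested. Leaving out the WT primary cortex arrays with high Ttr changed none of the 5 calls.

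Between the cultures, by main probe sets, the differences of the tissues did not carry over for the neuronal subunits. Of these, 1 was higher in hippocampal culture and 3 did not pass. The dim second probe set of Dpf3 was higher in the hippocampus in both. It ranged from 4.77 to 5.46 in hippocampal and from 4.03 to 4.57 in cortical culture. In the tissues it ranged from 4.79 to 5.49 and from 4.11 to 4.43. Of the 10 members, 4 were lower and 1 higher in hippocampal than in cortical culture, where 13.5% of all genes were lower and 14.7% higher. The lower ones were Smarcc1 (-0.36 ± 0.05), Smarca4 (-0.28 ± 0.05), Actl6a (-0.21 ± 0.06) and Smarca2 (-0.17 ± 0.06), and the higher one was Ss18l1 (0.25 ± 0.07, adjusted p = 0.004, limma). Dpf1 differed by -0.19 ± 0.14 and Actl6b by 0.13 ± 0.12, neither past the threshold. The test that these differences changed from tissue to culture is that of the change in the hippocampus minus that in the cortex, given above. Both subtract the same 4 means. For Smarcc1 no array of the 2 cultures overlapped. The call of Smarca2 was lost without cortical culture WT 3569 (adjusted p = 0.0534), cortical culture WT NT (0.0522) or hippocampal culture KO 2620 (0.065). The cultures also differed in cell makeup. In hippocampal culture 8 of 9 cell cycle genes and 7 of 7 oligodendrocyte lineage genes were lower, and none was higher. Of 10 mature neuron genes, 4 were higher and none was lower. The part of these lists was not tested.

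Ordered by level, Actl6a and Phf10 ran from the 2 tissues, which overlapped, down to the 2 cultures, which overlapped. Ss18 had primary hippocampus above primary cortex, without overlap, and both above the cultures. Actl6b, Dpf1 and Ss18l1 had primary cortex first, apart from primary hippocampus. Below that, Ss18l1 kept tissue and culture apart, while Actl6b and Dpf1 overlapped from primary hippocampus downward. Dpf3 had both cultures first, with every neighbour overlapping. Smarca4 and Smarcc1 had overlapping tissues above the cultures, and Smarca2 had primary cortex apart from the other 3 systems, whose neighbours overlapped.

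Comparing KO with WT in each system by main probe sets, Actl6b in hippocampal culture was the one member whose arrays did not overlap. The share of all genes without such overlap was not counted, so this is a description only. The 5 KO arrays read 6.49, 6.54, 6.55, 6.64 and 6.70, and the 5 WT arrays 5.44, 6.01, 6.15, 6.40 and 6.46. All KO arrays thus lay above all WT arrays, the WT values spreading over about 1 log2 unit and the KO values over much less. The difference was 0.50 ± 0.16 (p = 0.00416 and adjusted p = 0.35 with limma), and an exact two-sided permutation test gave p = 0.00794, the smallest that 5 arrays against 5 allow, or 0.317 adjusted over the 40 such tests of members and systems. It was the only member of 10 at an unadjusted p under 0.05 in hippocampal culture, the threshold used in the study, where 9.54% of all genes passed, but 2 to 4 members passed when KO 2221, KO 2620, KO 4236, WT 2236, WT 2643 or WT 3569 was left out. At an adjusted p under 0.05 no member passed, and 0.00550% of all genes did, which was Fmr1 alone. Without WT 2644, the lowest array, the difference was 0.33 (adjusted p = 0.725, limma), still past the unadjusted threshold, as it was with the 10 arrays fitted alone (adjusted p = 0.755). Immature neuron genes stood higher in the same KO arrays, 6 of 10 at an unadjusted p under 0.05 and none lower, among them Dcx (0.53 ± 0.21), Tubb3 (0.50 ± 0.15), Neurod6 (0.39 ± 0.18) and Sox11 (0.36 ± 0.18). The log2 of their summed signal was 14.81 to 15.10 in the KO and 14.35 to 14.98 in the WT arrays, and their part in the difference of Actl6b was not tested. At the same threshold none of 10 mature neuron and synapse genes (median difference 0.04) and none of 9 cell cycle genes passed between these arrays.

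In cortical culture, Ss18l1 was the one member past the unadjusted threshold by its main probe set, where 10.2% of all genes passed. Over all 23 probe sets of the members, 2 were higher, that of Ss18l1 included, and 1 was lower. The KO arrays of Ss18l1 read 8.21, 8.27, 8.33, 8.38 and 8.44, and its WT arrays 7.74, 8.03, 8.12, 8.23 and 8.49. The groups overlapped, 1 WT array being the highest of the 10, and the difference was 0.20 ± 0.09 (p = 0.0343 and adjusted p = 0.483 with limma, and p = 0.159 by the exact two-sided permutation test). It no longer passed without KO 2221 (0.18), KO 2620 (0.19), WT 2236 (0.11) or WT 2643 (0.18), nor when the 10 arrays were fitted alone (adjusted p = 0.889, limma). Actl6b differed by -0.13 ± 0.16 in this system. At an adjusted p under 0.05 again no member passed, and 0.00550% of all genes did.

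In the tissues no member differed between genotypes at an unadjusted p under 0.05 (limma), where 1.54% of all genes in primary hippocampus and 1.66% in primary cortex did. At an adjusted p under 0.05, no member was among the 0.0165% and 0.00550% of genes called. The differences of the 10 members lay between -0.03 and 0.10 in primary hippocampus and between -0.04 and 0.07 in primary cortex. For Actl6b the 95% interval was -0.27 to 0.33 in primary hippocampus and -0.26 to 0.40 in primary cortex, beside 0.50 with all arrays and 0.33 without WT 2644 in hippocampal culture. Averaged over the 4 systems by litter, Ss18l1 was higher in KO by 0.13 ± 0.05 (adjusted p = 1, limma), the one member past the unadjusted threshold by its main probe set, where 4.54% of all genes passed. That call was lost when any 1 of 6 of the 10 litters was left out (KO 2037, 2038 or 2221, or WT 2236, 2643 or 3569), where the difference was 0.10 to 0.13. Over all 23 probe sets of the members, 2 were higher in this average, that of Ss18l1 included. The KO effect in culture minus that in tissue passed for no main probe set of a member and for 4.92% of all genes, with 0.12 ± 0.15 for Actl6b and 0.13 ± 0.08 for Ss18l1. Of the 23 probe sets, 1 passed, with a higher value.

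**Figure D5:**
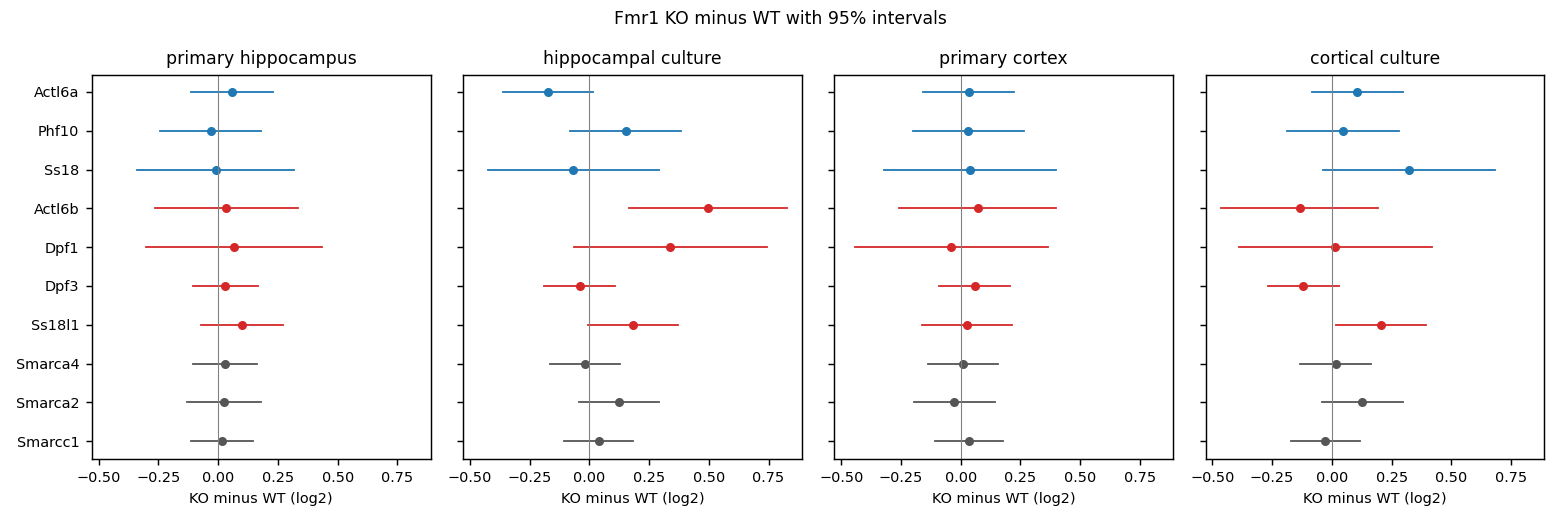
Fmr1 KO minus WT on the log2 scale (x axis) for the main probe set of each member in each of the 4 systems, with 95% intervals from limma, in blue for progenitor, red for neuronal and grey for core subunits. The interval lies clear of 0 for Actl6b in hippocampal culture and for Ss18l1 in cortical culture.

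Few of the other SWI/SNF genes passed between genotypes. Of 20 other subunits, Bcl7a in hippocampal culture (0.26 ± 0.12, adjusted p = 0.515, limma) and Dpf2 in cortical culture (0.22 ± 0.07, adjusted p = 0.347, limma) were higher at an unadjusted p under 0.05, and none passed in the tissues. Dpf2 is the PHD finger subunit found in most cell types.

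Within the groups, correlations over arrays between main probe sets were mostly positive among members of one form and mostly negative between forms. Other probe sets were not correlated, that of Phf10 with the opposite direction in culture included, so the pattern is known for the main probe sets only. After the mean of its group was taken from each of the 42 arrays, the correlation was above 0 for 3 of 3 pairs of progenitor subunits (r from 0.15 to 0.55) and 6 of 6 pairs of neuronal subunits (r from 0.01 to 0.77). Between a progenitor and a neuronal subunit it was above 0 for 1 of 12 pairs, with a median of -0.41 and a lowest value of -0.67 for Ss18 with Dpf3. It was above 0 for 3 of these 12 pairs over the 20 culture arrays and for 2 of 12 over the 22 tissue arrays. The closest pair was Actl6b and Dpf1, with r = 0.77 over all arrays, 0.83 in culture and 0.69 in tissue. Arrays of one litter share their source, and the pairs share members, so these values describe the 42 arrays only.

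Dpf1 was also among the 5 genes whose level was most like that of Actl6b over the 42 arrays, of 12631 compared, with r = 0.86. The others were Cdk5r1, the neuronal activator of the kinase Cdk5 (0.87), Ascc1 (0.86), Arl15 (0.86) and Fam241b (0.85). Their deviations from the group means followed those of Actl6b with r from 0.64 to 0.79. For Actl6a the 5 were Cdk2ap1 (0.97), Tia1 (0.96), Phf2 (0.96), Baz1b (0.96) and Vezf1 (0.96), with r of deviations from 0.55 to 0.68. Baz1b, a subunit of ISWI complexes, fell by 1.15 in hippocampal and 1.01 in cortical culture. These correlations over all arrays include the shift between tissue and culture, which the deviations leave out.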

How the data were processed

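RNA of embryonic mouse hippocampus and cortex and of cultures from them was hybridised to Affymetrix mouse expression arrays, 42 in all, and the authors deposited log2 signals per probe set, made with RMA per the submitters' processing notes. RMA sets all arrays to one distribution, so that a change shared by most genes would not show; which arrays were normalized together is not given in the sources used here. Array medians were 5.402 to 5.562, and the lowest correlation between arrays of a group was 0.9496. Arrays give no read depth, and their number limits the precision.

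Groups were taken from the labels. Of 45101 probe sets, 64 controls were left out and 45037 tested. The platform annotation gave 1 gene for 34945, several for 932 and none for 9160, and 34741 were found in RefSeq. Each of 18194 genes was read through its probe set with the highest mean. A probe set counted as above background where a group mean passed 5.16, the 95th percentile of 123 probe sets of olfactory, vomeronasal and keratin-associated genes. The members and lists were chosen with earlier results of these data known. All 10 members were named with every probe set, and up to 4 genes of each other list by size; REST was named for its list.

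Tests used limma 3.58.1 (R 4.3.3), with 8 group means, 1 pooled spread (34 residual degrees of freedom) and Benjamini-Hochberg adjustment over all probe sets. Calls needed an adjusted p under 0.05, or an unadjusted p under 0.05 between genotypes, after the study's methods. The spread was pooled over tissues and cultures. Means over the 4 systems were tested on 10 litter means. Pools of littermates, per the labels, were the replicates. Each mouse ID was taken as 1 litter, so p-values measure the spread between mouse IDs. Litter numbers mark a shared source across systems: deviations from group means correlated with a median r of 0.396 between the tissues (10 of 10 litters over 0.1), 0.29 between the cultures (8 of 10), and 0.001 and 0.022 between culture and tissue. KO and WT share no mouse ID. The methods describe pairs of WT and KO replicates processed on one day, but the labels do not say which samples form a pair, so genotypes were not paired. Alternatives were another fold or p threshold, only the arrays compared, another probe set per gene, median centring, repeated quantile normalization, a background filter, another variance model, array weights, the litter as a random block, and each array or litter left out. Those chosen after seeing the data were the 10 common litters, leaving out the 2 primary cortex arrays with high Ttr, and the mean of a gene's probe sets. The fit was tested on simulated data. Figures were drawn with Python 3.11.15 and matplotlib 3.10.9. Promoters came from RefSeq (GRCm38.p6).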

Additional observations from a re-analysis of the deposited data

Results flagged for a closer look

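In 80 groups of 5 or 6 arrays, 2 single arrays lay far from the rest of their group, where chance gives about 1 in 20 groups. Phf10 read 8.34 in the hippocampal culture of KO litter 2620, against 8.62 to 8.72 in the other 4. Actl6b read 5.96 in the primary hippocampus of KO litter 4237, against 6.51 to 6.77 in the other 5.

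The change from tissue to culture differed between hippocampus and cortex, by a test of that difference (limma), for 8 members. It was higher in the hippocampus for Actl6b (0.56), Dpf1 (0.83), Ss18l1 (0.62) and Smarca2 (0.49), and lower for Actl6a (-0.31), Ss18 (-0.58), Smarca4 (-0.23) and Smarcc1 (-0.29).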

How the results depend on the processing

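Of 1938 values under alternative settings, 1837 kept their direction and side of the threshold, 49 fell below it, 25 passed it and 27 changed sign. Of 126 under alternatives chosen after seeing the data, the counts were 114, 4, 4 and 4. With a 2-fold threshold added, the members called were 3 and 4 (culture against tissue in the hippocampus and the cortex), 0 (difference of these changes), 1 (between tissues) and 0 (between cultures). With an adjusted p, 0 were called between genotypes in hippocampal culture, 0 in cortical culture and 0 averaged over systems. In cortical culture the genotype count was 0 with only the arrays compared, 3 with the probe set of smallest p, 0 after repeated quantile normalization, 2 with array weights and 0 with the mean of the probe sets. Averaged over systems it was 2, 0 and 0 with the probe set of smallest p, repeated quantile normalization and the mean. The probe set of smallest p gave 8 between tissues and 1 for the genotype effect in culture minus tissue, and centring gave 2 in hippocampal culture. The causes were not tested.

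With 1 array or litter left out, the counts ran from 8 to 9 and 9 to 10 (culture against tissue in the hippocampus and cortex), 8 to 8 (difference of changes), 5 to 5 (tissues), 4 to 6 (cultures), 1 to 4, 0 to 3, 0 to 0 and 0 to 0 (genotypes in cultures of the hippocampus and the cortex and in both tissues), 0 to 2 (averaged) and 0 to 1 (culture minus tissue). The genotype count of hippocampal culture rose to 2 without KO 2221, KO 4236, WT 2236 or WT 3569, to 3 without WT 2643 and to 4 without KO 2620. That of cortical culture was 0 without KO 2221, KO 2620 or WT 2643, 2 without WT 2236 and 3 without KO 4236, and the average gave 2 without KO 2620. Culture minus tissue gave 1 without WT 2643.

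Phf10 and Smarca2 turned to 1.01 and 1.04 in hippocampal culture against tissue with the probe set of smallest p, and Smarca2 to 0.49 with the mean. The difference of changes of Phf10 turned to 0.24, 0.021 and 0.10 with the probe set of smallest p, centring and the mean. The tissue difference of Dpf3 turned to 0.86, 0.009, 0.006 and 0.43 with the probe set of smallest p (below background), array weights, the 10 common litters and the mean. With 1 array or litter left out, values near 0 that changed sign ran from -0.084 to 0.024 (Phf10, difference of changes), -0.015 to 0.015 (Dpf3, tissues), -0.026 to 0.15 (Ss18, cultures), -0.066 to 0.15 (Actl6b, genotypes in primary hippocampus), -0.016 to 0.19 (Actl6b, genotype effect in culture minus tissue) and -0.004 to 0.05 (Ss18l1, genotypes in primary cortex), none of them called. For the other 8 members between genotypes, the sign turned in 8 of 160 values in hippocampal culture, 19 of 160 in cortical culture, 20 of 184 and 27 of 168 in primary hippocampus and primary cortex, 13 of 152 averaged and 9 of 152 for culture minus tissue, none of them called. With the litter as a replicate block, no other call than that of Dpf3 in the cortex changed (0.11, adjusted p = 0.0441, limma). Centring moved the median of all genes by at most -0.091.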
